A study of Mus musculus with 6 samples.

Results

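The 9 genes described here, Gria1, Gria2, Gria3, Gria4, Grin1, Grin2c, Grik5, Grm5 and Grm7, encode subunits of glutamate receptors, and they were taken by gene symbol from the 45777 genes listed for the sorted astrocytes. They are 9 of the 26 genes for mouse glutamate receptor subunits in that list, and all 9 had at least 1 read in every library. No cut on their measured values was used to choose them, but earlier results of these data were known at that time. The comparison asks whether the transcripts of these receptors differed between astrocytes of hyperglycemic and of normoglycemic mice.

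Glutamate released at synapses acts on ion channels and on G protein-coupled receptors. AMPA receptors, built from the products of Gria1 to Gria4, are fast cation channels, and the edited Gria2 product keeps calcium out of the channel. NMDA receptors need the obligatory subunit made from Grin1 together with a partner subunit such as that from Grin2c, and they open only when a co-agonist, glycine or D-serine, is bound. Grik5 encodes a high-affinity kainate receptor subunit that needs a partner to form a channel. Grm5 encodes mGluR5, which couples to Gq and releases calcium from internal stores, whereas Grm7 encodes a receptor that couples to Gi/o and is best known from nerve terminals. Astrocytes surround synapses, take up glutamate and respond to it with calcium signals, and mGluR5 is known to be abundant in astrocytes of the young brain and scarce in the adult.

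All mice were male, of C57BL/6 background and of the genotype Aldh1l1-CreERT2;tdTomato fl/fl, given in the sample labels as WT. Tamoxifen (75 mg/kg for 5 days) switched on tdTomato in cells in which the Aldh1l1 promoter, an astrocyte promoter, drove the recombinase, so the sort depends on that promoter. Streptozotocin (STZ, 150 mg/kg), which destroys pancreatic beta cells, was injected once at an age of 8 weeks, and the vehicle group was injected with the citrate buffer alone. Mice of the STZ group were kept only if hyperglycemic, and brains were collected after 21 days. TdTomato-positive cells of 3 mice were pooled for each library, which gave 3 vehicle and 3 STZ libraries, and every p-value rests on the spread between those pools.

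Total counts ranged from 52529048 to 58749115 per library, and 3 counts equalled 0.0511 to 0.0571 CPM (counts scaled to library size). The 10 astrocyte markers summed to 6080 to 7070 FPKM (fragments scaled to transcript length and library size) over the 6 libraries. The libraries also held RNA of other cell types, with sums of 26.2 to 56.4 FPKM for 11 neuron markers, 107 to 165 for 6 microglia markers and 4270 to 12800 for 4 choroid plexus markers, and 0.0632 to 0.211 for 3 markers of cerebellar granule neurons, of which Gabra6 was listed at 0 in all vehicle libraries. Vehicle replicate 1 and STZ replicate 1 stood apart in the markers of oligodendrocytes. Summed mural markers were higher in every STZ library. Summed endothelial markers were higher in STZ replicates 1 and 2 than in any vehicle library. For them STZ replicate 3 (43.3 FPKM) was below vehicle replicate 3 (48.7). These values are given beside the results they move with.

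The levels of the 9 genes spanned more than 2 orders of magnitude per unit of length. Gria2 was the most abundant with 49.8 ± 6.52 FPKM (mean ± SD of the 6 libraries), followed by Grin2c with 39.5 ± 5.6 and Gria1 with 22.8 ± 2.91. Gria2 and Grin2c overlapped in range over all libraries, but Gria2 was higher than Grin2c within each library, by 1.01 to 1.44 times. Grik5 followed with 7.67 ± 0.475 FPKM, Gria4 with 4.2 ± 0.829 and Grm5 with 0.62 ± 0.29, and from Grin2c down to Grm5 no 2 neighbours overlapped. At the low end, Gria3 (0.236 ± 0.0813 FPKM), Grin1 (0.223 ± 0.0893) and Grm7 (0.0899 ± 0.0578) overlapped with each other, and the ranges of Gria3 and Grin1 also met that of Grm5.

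**Figure D1:**
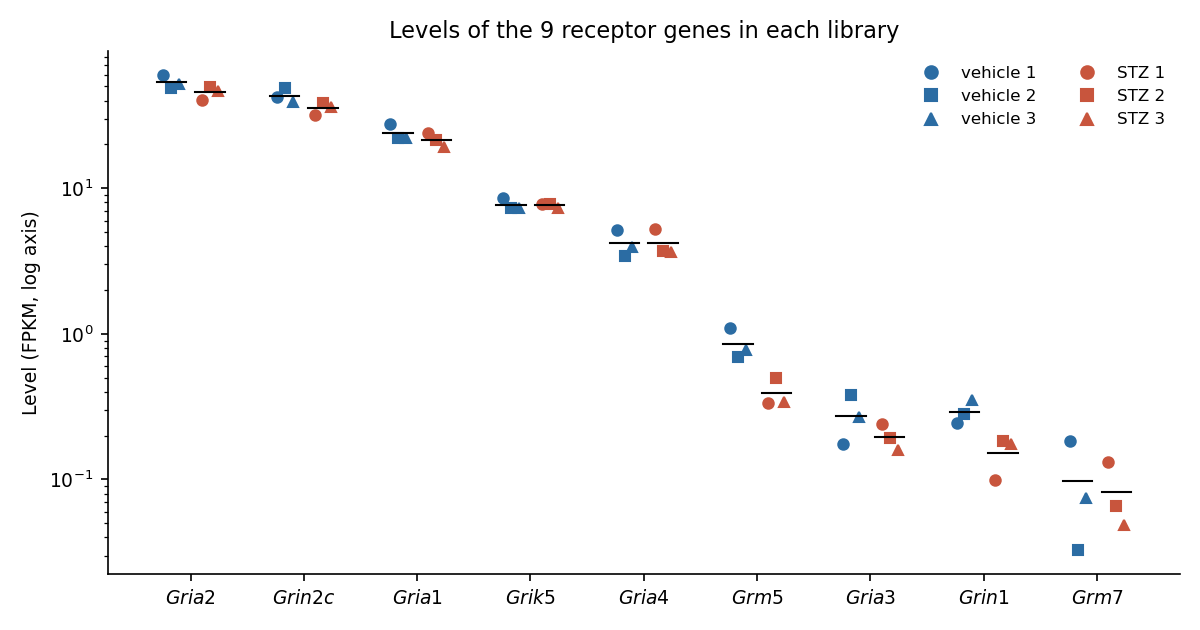
Level of each receptor gene in FPKM on a log axis, with circles, squares and triangles for replicates 1, 2 and 3 of the vehicle (blue) and STZ (red) groups and a black line at each group mean. Gria2, Grin2c and Gria1 lie between 19.2 and 60.4 FPKM in every library, and Grm7 lies between 0.033 and 0.185 FPKM.

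Each of the 9 genes had a log2 fold change (STZ over vehicle) below 0, where 48.1% of all 22337 genes tested had one. The median over the 9 genes was -0.30, and that over all tested genes was 0.01. Without vehicle replicate 1 the median was -0.14 and 7 of the 9 genes were below 0, and without STZ replicate 3 there were 8. By edgeR's quasi-likelihood test with Benjamini-Hochberg adjustment over all tested genes, 0 of the 9 had an adjusted p under 0.05 with a fold change over 1.5, a call that 0.0224% of all genes (5 genes) received. At an unadjusted p under 0.05, 3 of the 9 were lower in STZ (Grm5, Grin2c and Grin1) and 0 higher, beside 5.65% of all genes lower and 5.63% higher. The same 3 genes were the ones whose normalized CPM did not overlap between the groups, all with the STZ libraries below the vehicle libraries, as in 9.85% of all genes. DESeq2, the tool of the study, called 1 of the 9, Grm5, as lower, where it called 0.477% of the 18437 genes to which it gave an adjusted p. In pooled cells, fewer cells of a type and less RNA per cell cannot be told apart.

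**Figure D2:**
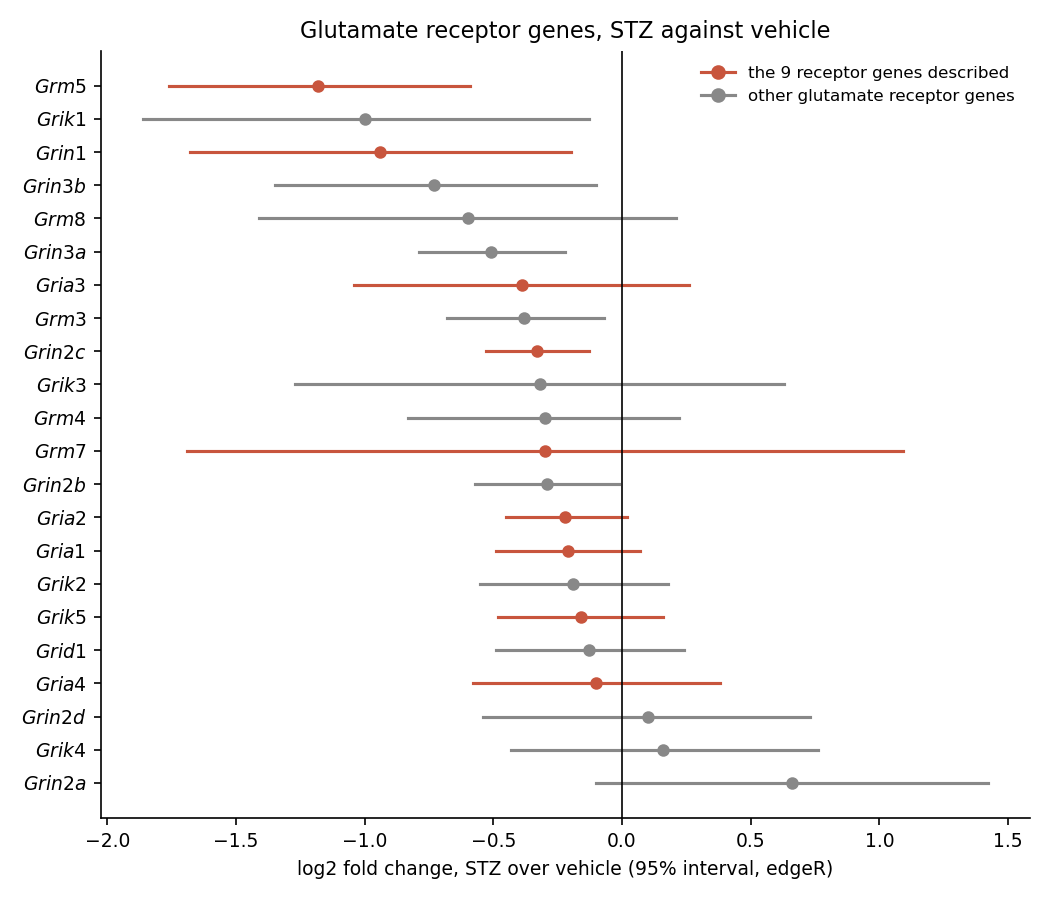
Log2 fold change of STZ over vehicle (point) with its 95% interval from edgeR (line) for 22 of the 24 glutamate receptor genes tested, the 9 genes described in red and the others in grey. The points of 19 genes lie below 0, and the intervals of 3 of the 9 genes, Grm5 (-1.76 to -0.59), Grin1 (-1.68 to -0.20) and Grin2c (-0.53 to -0.13), and of Grin3a, Grm3, Grin3b, Grik1 and Grin2b stay below 0.

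Grm5 (NCBI gene 108071, chromosome 7 at 87583981 to 88135063 of GRCm38) showed the largest difference of the 9 genes. It was read 552, 339 and 415 times in vehicle replicates 1 to 3 and 184, 262 and 182 times in STZ replicates 1 to 3. Normalized to library size, these were 10.3, 6.53 and 7.24 CPM against 3.03, 4.5 and 3.1 CPM, so that the highest STZ library was below the lowest vehicle library. The fitted STZ level was 0.442 times the vehicle level (95% interval 0.294 to 0.663), a log2 fold change of -1.18 ± 0.251 (SE). The adjusted p was 0.231 by edgeR (unadjusted 0.00183) and 0.000649 by DESeq2, which therefore called Grm5 as changed where edgeR did not. The difference was still -0.86 on the log2 scale when vehicle replicate 1, the highest, and STZ replicate 1 were both left out. Grm5 overlaps the gene models Gm18454 and Gm24249, whose reads could not be told apart from its own because the counting was not stated to use strand.

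Markers of astrocytes from different brain regions are given beside Grm5 because they also separated the groups. The summed 4 telencephalic astrocyte markers were at 2900 to 3120 FPKM in vehicle and 2090 to 2630 in STZ, and the 3 non-telencephalic ones at 1500 to 1980 and 2100 to 2530. Mfge8 made up most of the telencephalic sum (2820 to 3040 against 2030 to 2550 FPKM), while Lhx2 (51.1 to 56.2 against 46.1 to 59.9 FPKM) and Emx2 (8.53 to 9.55 against 7.87 to 9.29) overlapped between the groups. Among the non-telencephalic ones, Agt was higher in every STZ library (1500 to 1860 against 971 to 1280 FPKM) and Slc6a11 lower (215 to 233 against 244 to 352). The part of such regional markers in the Grm5 difference was not tested.

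Grm7 (gene 108073, chromosome 6 at 110645349 to 111567230) had few reads, with 98, 18 and 46 in the vehicle and 74, 40 and 30 in the STZ libraries. The vehicle libraries differed widely in normalized CPM (1.83, 0.347 and 0.803), and the STZ libraries (1.22, 0.687 and 0.511) lay within their range. The log2 fold change was -0.30 with an interval from -1.69 to 1.09, which leaves both a large decrease and a large increase possible in these libraries (edgeR adjusted p = 0.879). Without vehicle replicate 1 it was 0.48. Grm7 overlaps the gene model Gm20387.

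Among NMDA receptor genes, Grin2c (gene 14813, chromosome 11 at 115249169 to 115267297) is transcribed at a high level in astrocytes and Grin1 (gene 14810, chromosome 2 at 25291177 to 25319187) at a very low one. Promoter sequences were at hand in RefSeq (GRCm38.p6) for 6 of the 9 genes, and those of Grin2c and Grin1 were examined over the 250 bases before the annotated start because both genes had lower values in every STZ library. For Grin1 all 250 bases are shown (chr2:25319188-25319437, minus strand, 5′ to 3′), with capitals for the E-box CACGTG. For Grin2c the stretch with its GC boxes is shown (chr11:115267270-115267296, minus strand, 5′ to 3′), with capitals for the GC box GGGCGG.
Grin1: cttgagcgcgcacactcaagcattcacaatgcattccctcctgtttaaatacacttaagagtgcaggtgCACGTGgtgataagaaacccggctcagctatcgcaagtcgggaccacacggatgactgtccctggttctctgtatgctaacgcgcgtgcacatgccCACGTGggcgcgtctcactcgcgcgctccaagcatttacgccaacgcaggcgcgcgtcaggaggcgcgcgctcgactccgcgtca
Grin2c: ctgGGGCGGgccgGGGCGGGGCGGagg
Searched on both strands, the Grin1 promoter holds 2 E-boxes and no GC box, and that of Grin2c holds 3 GC boxes, of which the last 2 share a base, and no E-box. The GC box is found in 32.7% and the E-box in 6.02% of the 32851 promoter sequences of this length, and the motifs were picked after earlier results were known. Among the other genes with a promoter at hand, Grik5 holds 2 GC boxes and Grm7 holds 1, and Gria2 and Gria4 hold neither motif. The 250 bases of Grik5 and of Gria2 lie wholly inside the widest annotated spans of these genes, and Grm7 has overlapping promoter entries. The normalized CPM of Grik5, Grm7, Gria2 and Gria4 overlapped between the groups. No promoter was at hand for Gria1, Gria3 and Grm5, although Grm5 also had lower values in every STZ library. The G and C content was 58.8% for Grin1 and 68.8% for Grin2c, with a median of 52.4% over all promoters. The last 54 of the 250 Grin2c bases, and with them all 3 GC boxes, lie inside the widest annotated span of the gene.

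Grin2c was read 17807, 16884 and 18377 times in the vehicle and 16457, 16129 and 13561 times in the STZ libraries. In normalized CPM these were 332, 325 and 321 against 271, 277 and 231, so the vehicle libraries lay within a few percent of each other and all 3 STZ libraries were below them. The fitted STZ level was 0.797 times the vehicle level (95% interval 0.692 to 0.917). The log2 fold change of -0.33 ± 0.087 (SE) had an unadjusted p of 0.00607 and an adjusted p of 0.301 by edgeR and 0.0822 by DESeq2. In FPKM the separation was narrow, with 42.1, 48.5 and 39.4 in vehicle against 31.8, 38.7 and 36.3 in STZ.

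Grin1 gave 63, 66 and 95 reads in the vehicle and 28, 50 and 48 reads in the STZ libraries. These were 1.17, 1.27 and 1.66 normalized CPM against 0.462, 0.859 and 0.817, and the groups did not overlap. The fitted STZ level was 0.521 times the vehicle level (interval 0.312 to 0.868), a log2 fold change of -0.94 ± 0.317 (SE), with an adjusted p of 0.356 by edgeR (unadjusted 0.019) and 0.253 by DESeq2. The unadjusted edgeR p was 0.0637 without vehicle replicate 3 and 0.0549 without STZ replicate 1. Grin1 overlaps Lrrc26 and its antisense gene Grin1os, so reads of these genes could not be told apart. Grin1 is abundant in neurons, and neuron markers summed to 26.2, 51.1 and 38.8 FPKM in vehicle and 56.4, 41.2 and 40.3 in STZ, and 0 of the 9 tested neuron markers had an unadjusted p under 0.05; their part in the Grin1 value was not tested.

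Per unit of length, Grin2c exceeded Grin1 by 172, 173 and 111 times in the vehicle libraries and by 319, 209 and 209 times in the STZ libraries. The ratio was higher in all 3 STZ libraries, with an exact two-sided permutation p of 0.1, the smallest that 3 against 3 allow, and 0.25 after adjustment over the 10 ratios and family sums compared. Such a p cannot fall under 0.05 whatever the values. Grin1 was already described as lower, so the ratio is a description and no separate evidence. Grin2c held 87.9% ± 1.51 (SD, 6 libraries) of the summed FPKM of the 7 NMDA receptor genes and Grin1 0.487% ± 0.167. The second most abundant was Grin3a, which encodes a glycine-binding subunit, with 8.02% ± 1.3.

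The 4 AMPA receptor genes did not pass the test. Gria2 (gene 14800, chromosome 3 at 80681450 to 80804227) was at 585, 517 and 480 normalized CPM in the vehicle and 413, 468 and 481 in the STZ libraries, so only the third STZ library entered the vehicle range. Its STZ level was 0.861 times the vehicle level (95% interval 0.73 to 1.02, edgeR adjusted p = 0.479). Gria1 (gene 14799, chromosome 11 at 57011571 to 57330244) was at 175, 138 and 138 against 142, 130 and 117 normalized CPM, a ratio of 0.864 (interval 0.713 to 1.05, adjusted p = 0.537). Both intervals include no difference and end at 1.05 or below.

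**Figure D3:**
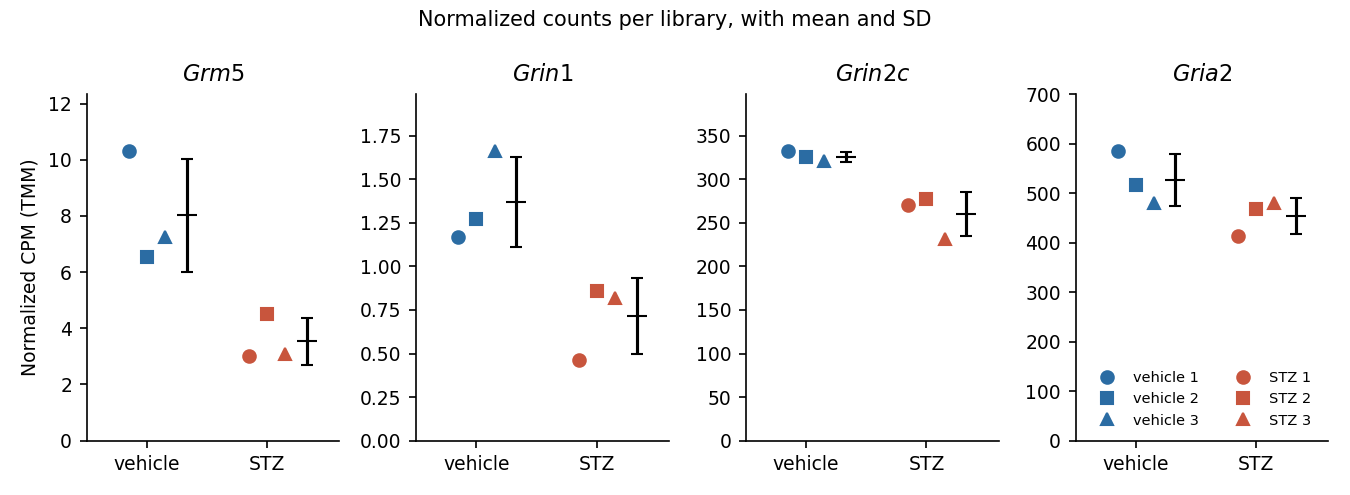
Normalized CPM (TMM scaling) of Grm5, Grin1, Grin2c and, for comparison, Gria2 in each library, on axes that start at 0, with the mean and SD of each group (n = 3) in black beside the points. For the first 3 genes every STZ library lies below every vehicle library, and for Gria2 the groups overlap.

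Gria4 (gene 14802, chromosome 9 at 4417893 to 4796234) was at 22.4, 15.4 and 17.6 normalized CPM in the vehicle and 22.1, 14.9 and 14.6 in the STZ libraries. Its highest values came from replicate 1 of each group, and the groups overlapped almost entirely. The log2 fold change of -0.10 (interval -0.58 to 0.38, adjusted p = 0.881) became 0.06 without vehicle replicate 1 and 0.0043 without STZ replicate 3. Gria4 overlaps the gene model Gm46101. Gria3 (gene 53623, chromosome X at 41400819 to 41678601) had only 56, 90 and 84 reads in vehicle and 77, 61 and 54 in STZ, with a log2 fold change of -0.39 (interval -1.04 to 0.26, adjusted p = 0.625), and the groups overlapped.

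The make-up of the AMPA transcripts was alike in 5 of the 6 libraries. Gria2 held 64.5%, 65.5% and 66.5% of the summed AMPA FPKM in the vehicle and 57.9%, 66.1% and 67.1% in the STZ libraries. STZ replicate 1 stood apart, with a lower Gria2 share and the highest shares of Gria1 (34.2%) and Gria4 (7.55%). Over the 6 libraries Gria1 held 29.6% ± 2.38 (SD), Gria4 5.47% ± 1.07 and Gria3 0.31% ± 0.114. The ratio of Gria2 to Gria1 was 2.25 ± 0.0995 in vehicle and 2.15 ± 0.397 in STZ (SD, n = 3 each; exact two-sided permutation p = 0.9, adjusted 1). Adarb1, which encodes the enzyme that edits the Gria2 transcript, was at 0.152 to 0.482 FPKM with a log2 fold change of 0.15 (interval -0.49 to 0.78). Editing itself was not measured in these files.

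**Figure D4:**
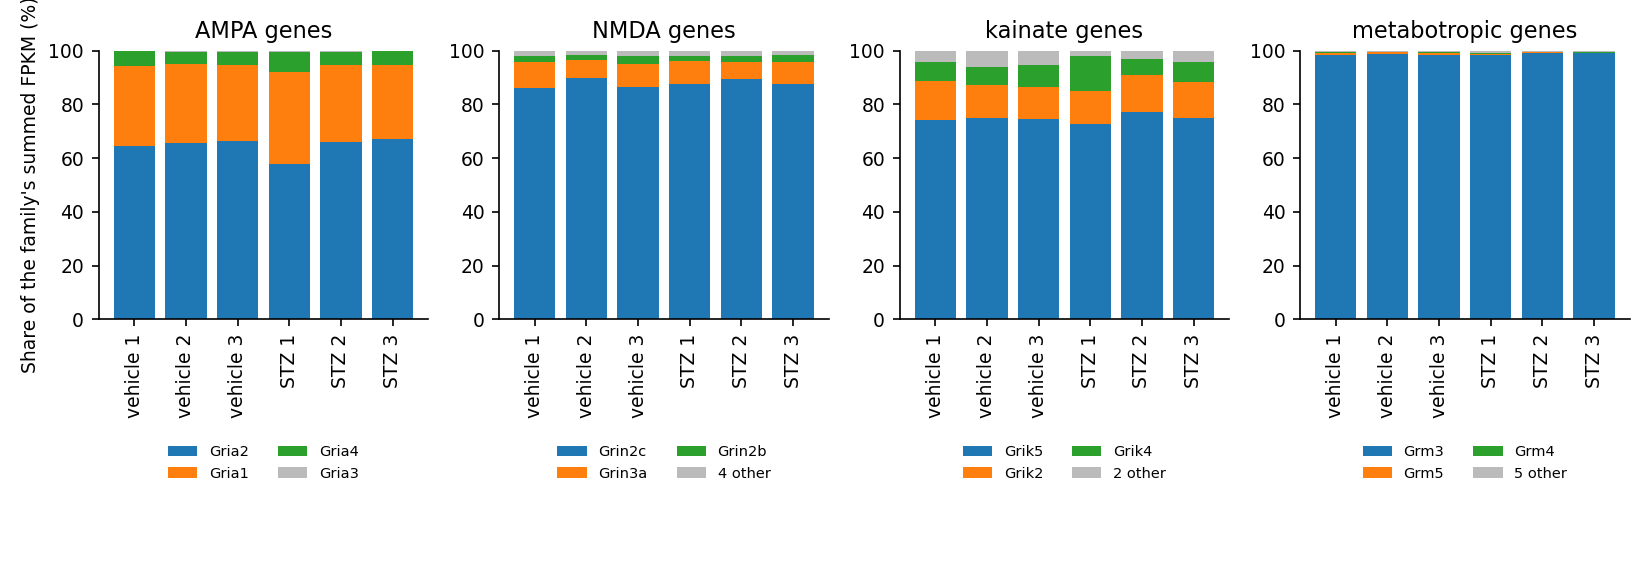
Share of each gene in the summed FPKM of its receptor family (%), a bar per library, with the 3 most abundant genes in color and the remaining ones in grey. Gria2, Grin2c, Grik5 and Grm3 are the largest parts in all 6 libraries, and the AMPA bar of STZ replicate 1 has the smallest Gria2 part, 57.9%.

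Grik5 (gene 14809, chromosome 7 at 25009849 to 25075694) was at 48.3, 39.8 and 34.7 normalized CPM in the vehicle and 41, 35.8 and 33.1 in the STZ libraries, and the groups overlapped. The log2 fold change was -0.16 (interval -0.48 to 0.16, adjusted p = 0.683), and in FPKM the group means were 7.7 ± 0.709 and 7.64 ± 0.244 (SD, n = 3 each). It overlaps Zfp574. Grik5 held 74.8% ± 1.51 of the kainate receptor FPKM. The most abundant possible channel partner was Grik2, which Grik5 exceeded by 5.09 to 6.34 times in the 6 libraries.

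The other 17 glutamate receptor genes give the surroundings of these values. Of these, Grm2 and Grm6 had no read in at least 1 library and were not tested; 11 of the 15 tested had a log2 fold change below 0, with a median of -0.29. At an unadjusted p under 0.05, 5 were lower in STZ and 0 higher, and 0 were called by edgeR or DESeq2. Over all genes tested, 48.1% were below 0, and 5.65% were lower and 5.63% higher at that unadjusted p. Grm3, the Gi/o-coupled receptor of mature astrocytes, made up 98.7% ± 0.256 of the metabotropic FPKM and was more abundant than any of the 9 genes. It was at 137, 121 and 130 FPKM in the vehicle and 84.8, 109 and 118 in the STZ libraries, which did not overlap (log2 fold change -0.38 ± 0.133 SE, adjusted p = 0.379). Grm3 exceeded Grm5 by 126, 175 and 169 times in vehicle and by 252, 219 and 349 times in STZ (exact permutation p = 0.1, adjusted 0.25). Here too 0.1 is the smallest p possible, and Grm5 was already described as lower.

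Grin3a was at 4.82, 3.64 and 3.92 FPKM in the vehicle and 3.11, 2.76 and 3.29 in the STZ libraries, which did not overlap. Its log2 fold change was -0.51 ± 0.121 (SE), with an adjusted p of 0.271 by edgeR and 0.0334 by DESeq2, and its ratio of 0.704 did not reach the fold asked for. The remaining ones at an unadjusted p under 0.05 were Grik1, Grin3b and Grin2b, with STZ levels of 0.501, 0.605 and 0.818 times the vehicle level. Among genes with a log2 fold change above 0, Grin2a (0.66, adjusted p = 0.494) was at 0.0102 to 0.0261 FPKM, and Grik4 (0.16) and Grin2d (0.10) had intervals on both sides of 0. Grik2 (log2 fold change -0.19), Grik3 (-0.32), Grm4 (-0.30), Grm8 (-0.60) and the delta receptor gene Grid1 (-0.13) did not pass either.

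Genes that work with these receptors were described by list. The share to set beside each list is 5.65% of all genes lower and 5.63% higher at an unadjusted p under 0.05. Of 15 genes for auxiliary subunits of AMPA and kainate receptors, 13 were tested (Cacng3 and Neto1 were not); 4 were lower and 1 higher at an unadjusted p under 0.05, and the median log2 fold change was -0.27. Gsg1l, an auxiliary subunit that slows recovery of AMPA receptors from desensitization, was called by DESeq2 (adjusted p = 0.0321) but not by edgeR (0.301), with 1.42, 1.14 and 1.22 FPKM in vehicle against 0.76, 0.745 and 0.881 in STZ. Shisa9 (-0.47), the most abundant of the list at 10.4 to 16.7 FPKM, Cacng5 (-0.43), a TARP known from glia, and Frrs1l (-0.45), which acts in AMPA receptor assembly, were the others at an unadjusted p under 0.05. Cnih3, which promotes export of AMPA receptors, was the exception with 0.128, 0.0635 and 0.0707 FPKM against 0.239, 0.168 and 0.148 (log2 fold change 1.17 ± 0.273, edgeR adjusted p = 0.26, DESeq2 0.212).

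Of 14 genes for scaffolds and trafficking, 2 were lower (Dlg4, which encodes PSD-95, -0.55; Homer2, a scaffold that binds mGluR5, -0.56) and 1 higher (Grip2, 2.3 times the vehicle level, at 0.0343 to 0.186 FPKM) at an unadjusted p under 0.05, with a median of -0.09. The most abundant of them, Pick1 (24.3 to 30.6 FPKM) and Nsf (15.6 to 17.6 FPKM), had log2 fold changes of -0.20 and -0.11. Of 5 genes for handling of NMDA receptor co-agonists, 5 were below 0, where 48.1% of all genes were, but Slc1a4 only at -0.00. At an unadjusted p under 0.05 there were 2. These were Slc6a9, the glial glycine transporter, with 148, 108 and 116 FPKM against 108, 91.3 and 87.3 (-0.45 ± 0.142 SE), and Slc7a10, a carrier of small neutral amino acids, with 923, 793 and 808 against 642, 709 and 745 (-0.33 ± 0.109 SE). Srr, which encodes serine racemase, had -0.17, Dao -0.35, and Slc1a4, at 100 to 112 FPKM, had an interval from -0.18 to 0.18. The edgeR adjusted p-values of the scaffold and co-agonist genes were 0.289 or above.

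Of 14 genes for G proteins and calcium release downstream of metabotropic receptors, 7 were below and 7 above 0, with a median of -0.01. Gnaq and Gna11, the G proteins of mGluR5, had log2 fold changes of -0.06 (interval -0.26 to 0.13) and 0.05 (interval -0.13 to 0.23). Itpr2, the main store channel of astrocytes, had -0.15 (interval -0.34 to 0.04). The 2 genes at an unadjusted p under 0.05, Gnao1 (-0.30) and Gnai1 (-0.40), encode Gi/o proteins, and Gnai2 was the most abundant at 216 to 272 FPKM (0.09). The 3 RNA editing enzymes had 0 genes at that level, and their median was 0.12. Over the 64 tested genes of these lists and the other receptors, 15 were lower and 2 higher at an unadjusted p under 0.05, 0 were called by edgeR and 1 by DESeq2. The 15 include the 5 other receptor genes already given as lower. Over all genes, 5.65% were lower and 5.63% higher at that p. DESeq2 called 0.477% of the genes given an adjusted p as lower.

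Several of the 9 genes were highest in the libraries with most RNA of mature oligodendrocytes. The 7 oligodendrocyte markers summed to 840, 364 and 343 FPKM in the vehicle and 1250, 450 and 486 in the STZ libraries. Sox10, which marks the whole lineage, was at 5.27, 2.03 and 1.51 against 5.11, 2.05 and 1.33, and it made up most of the sum of the 5 precursor markers in vehicle replicate 1 and STZ replicate 1 (6.72 and 7.62). The other 4 precursor markers summed to 1.45, 1.85 and 1.95 against 2.51, 1.58 and 1.97, lowest in vehicle replicate 1 and highest in STZ replicate 1. These markers differed from each other. Pdgfra was lowest in vehicle replicate 1 (0.299 FPKM). Gpr17 was highest in replicate 1 of each group (0.35, 0.155 and 0.0699 FPKM in vehicle, 0.115, 0.0519 and 0.0582 in STZ). Gria4 (1.24 times its 6-library mean in vehicle replicate 1 and 1.26 times in STZ replicate 1) and Grm7 (2.06 and 1.47 times) were highest in the same pair of libraries, and so was Gria1 (1.22 and 1.05 times). Grik5 was highest in that pair in normalized CPM (48.3 and 41). In FPKM, its STZ replicate 1 (7.77) was just below STZ replicate 2 (7.79). By contrast, STZ replicate 1 held the lowest Grm5 and Grin1 values of all 6 libraries. Vehicle replicate 1 also had the least choroid plexus marker RNA (4270, 12100 and 12800 FPKM in vehicle, 8480, 6910 and 11700 in STZ). None of the oligodendrocyte or precursor markers had an unadjusted edgeR p under 0.05 between the groups. The part of oligodendrocyte, precursor or choroid plexus RNA in the values of Gria4, Grm7, Gria1 and Grik5 was not tested. With the pair of libraries left out, the log2 fold changes were -0.16 for Gria4, 0.05 for Grm7 and -0.16 for Gria1.

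**Figure D5:**
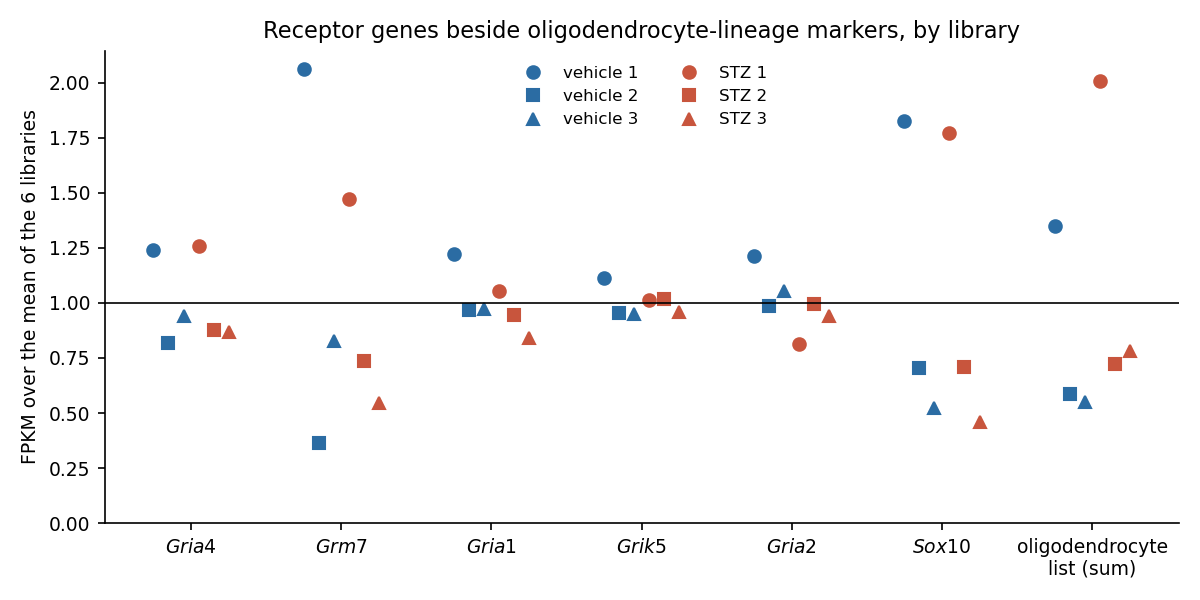
FPKM of each gene, and of the sum of 7 oligodendrocyte markers, divided by its mean over the 6 libraries; circles, squares and triangles are replicates 1, 2 and 3 of the vehicle (blue) and STZ (red) groups and the line marks the mean. Vehicle replicate 1 and STZ replicate 1 are the 2 highest libraries for Gria4, Grm7, Gria1, Sox10 and the marker sum, but not for Gria2.

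Endothelial markers, and some mural ones, differed in the direction opposite to the receptor genes. The 7 endothelial markers summed to 14.2, 18.7 and 48.7 FPKM in the vehicle and 88.6, 68.1 and 43.3 in the STZ libraries, all 7 had log2 fold changes above 0 (1.01 to 1.43), 6 of them at an unadjusted p under 0.05, and Nostrin was called by DESeq2. The 4 mural markers summed to 21.2 to 27.1 against 33.1 to 42.8 FPKM, and Rgs5 and Acta2 were called by DESeq2, as were 0.792% of the genes in this direction. Pdgfrb, the most abundant mural marker in the vehicle libraries (12.9 to 14 against 11.1 to 15.7 FPKM), had a log2 fold change of -0.08 and Kcnj8 one of 0.50, and both overlapped between the groups. Gdf10, a marker of Bergmann glia, was at 19.1 to 24.2 against 28 to 36.5 FPKM, and the 4 choroid plexus markers had log2 fold changes of -0.70 to -0.15. Of the 10 astrocyte markers, Aqp4 and Aldh1l1 had lower and Gjb6 higher values at an unadjusted p under 0.05, and the median log2 fold change was -0.11; that of the 6 microglia markers was -0.08. STZ replicate 1, with the highest endothelial sum, had the lowest Grm5, Grin1, Gria2 and Grm3 values of the 6 libraries in FPKM. The vehicle library with the most endothelial RNA, replicate 3, had 7.24 normalized CPM of Grm5, between those of the other vehicle libraries. It had the lowest vehicle values of Gria2 (480) and Grin2c (321) and the highest of Grin1 (1.66). The part of vessel RNA in the receptor values was not tested.

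Genes with profiles most like that of Grm5 over the 6 libraries, among 10398 genes with a mean of at least 10 CPM, included Gm10557 (Pearson r of log2 CPM 0.996) and Sned1 (0.995), with log2 fold changes of -0.46 and -0.54. For Gria2, the most abundant of the 9 genes, they were Guf1 (0.997), Gdpd2 (0.994) and Rab10 (0.994), with log2 fold changes of -0.25, -0.26 and -0.10. These are descriptions over 6 libraries that share preparation and depth, picked as the highest of many.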

How the data were processed

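RNA sequencing of sorted tdTomato-positive astrocytes covered 3 vehicle and 3 STZ libraries, grouped by their labels. Per the submitters' processing notes and the study's methods, reads were trimmed with Trimmomatic 0.38, aligned to mm10 with HISAT2 2.1.0 and quantified with StringTie 2.1.3b; the annotation and the use of strand are not given in the sources used here, and 1 source names another library kit (TruSeq) beside SMART-Seq. The deposited counts are whole numbers per gene with no normalization. The deposited FPKM values are scaled by the authors to transcript length and library size. The deposited TPM values sum to 999946.2 to 999982.0 per library by the authors' scaling, and they were used only in alternatives. The study's removal of outlier genes is not described in detail and was not repeated.

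The 22337 genes read in every library were tested on their counts with edgeR 4.0.16 in R 4.3.3, by a two-sided quasi-likelihood test with TMM normalization and no factor other than the group, and p-values were adjusted over all of them by the Benjamini-Hochberg method; a call needed an adjusted p under 0.05 and a fold over 1.5. Normalized CPM are counts over TMM-scaled library sizes, and SDs are between the 3 libraries of a group. Ratios and family sums were planned as descriptions without a test. The exact two-sided permutation given for them was added to that, and with 3 against 3 libraries its p cannot fall under 0.1. Intervals are 95% intervals of the fit, and the limit of 3 counts covers counting error only. The procedures were tested on simulated data. Alternatives were DESeq2 1.42.0, other normalizations and filters, limma 3.58.1 on log2(TPM + 1) and log2(TPM + 0.1), robust fitting, a replicate block, and leaving out libraries; DESeq2 with the block and leaving out vehicle replicate 1 together with STZ replicate 1 were chosen after seeing the data.

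The 9 genes and all gene lists were chosen with earlier results of these data known, and some lists came from that work. Named were the 9 genes, all other glutamate receptor genes, marker genes, up to 3 genes per direction with the smallest p and the 2 most abundant of each further list, and the 3 genes most alike to Grm5 and to Gria2; some of these genes are not reported here. Gene spans are from the RefSeq annotation of GRCm38, matched for 45679 genes.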

Additional observations from a re-analysis of the deposited data

How the results depend on the processing

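Over the 9 genes, all log2 fold changes kept their direction and their side of the adjusted threshold under robust fitting, limma, filterByExpr, no filter, and edgeR with the size factors of DESeq2, and under DESeq2 with 1 exception. DESeq2 called Grm5 (log2 fold change -1.18, adjusted p = 0.000649), as did DESeq2 with the replicate block (-1.18, adjusted p = 0.0221); the cause was not tested. The number of the 9 genes at an unadjusted p under 0.05 was 3, but 4 under limma (with Gria2) and under the replicate block (with Gria1), and 2 without STZ replicate 1 and under DESeq2 with the block (both without Grin1); without vehicle replicate 3, Gria2 took the place of Grin1. With 1 library left out at a time, the log2 fold change ranged from -0.33 to 0.06 for Gria4 (0.06 without vehicle replicate 1, 0.0043 without STZ replicate 3), from -0.73 to 0.48 for Grm7 (0.48 without vehicle replicate 1), from -1.39 to -0.96 for Grm5, from -1.10 to -0.71 for Grin1 and from -0.38 to -0.25 for Grin2c. Without vehicle replicate 1 and STZ replicate 1 together, Grm7 was at 0.05 and 8 of the 9 genes were below 0. The number of all genes called moved from 5 to 234 with DESeq2 and 124 with DESeq2 and the replicate block, to 10 with robust fitting, 10 at an adjusted p under 0.1, 0 with limma at either pseudocount, 0 to 1 with a library left out, 0 without that pair of libraries and 0 with the replicate block (1793 at an unadjusted p under 0.05, against 2519 without). Same-numbered libraries did not deviate together (mean correlation of deviations -0.149, against 0.0743 for other pairs). Deviations sum to 0 within each group, so these means are not independent of each other. With 3 libraries per group they cannot settle whether the numbers pair samples. In the block fit the 9 genes stayed below 0, Grm5 with an unadjusted edgeR p of 0.00865. Depth limits Grm7, Grin1 and Gria3, with 18 to 98, 28 to 95 and 54 to 90 reads per library.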

Other observations

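The number of counts per unit of FPKM, divided by the median of that number over the well-read genes (at least 50 counts in every library) to remove library size, reflects the transcript length assigned to a gene in a library, and it differed between libraries for some of the 9 genes and not for others. With the vehicle mean set to 1, Grin2c was at 1.04, 0.887 and 1.08 in the vehicle and 1.19, 0.987 and 0.864 in the STZ libraries, Gria2 at 0.985, 1.08 and 0.936 against 1.1, 1.01 and 1.08, and Grik5 at 1.07, 1.03 and 0.903 against 1.05, 0.908 and 0.878. Grm5 stayed between 0.999 and 1.01 and Grm3 at 1 in every library. For Grin2c, a comparison of FPKM and one of counts therefore weigh the same libraries differently. STZ replicate 3 had the fewest Grin2c reads of all 6 libraries (13561) but not the lowest FPKM (36.3), and STZ replicate 1 had the lowest FPKM (31.8) with 16457 reads. Which transcripts of Grin2c the libraries held was not tested.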
